A study of Mus musculus with 18 samples.

Results

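Unnamed intergenic loci are stretches of the genome where the authors' assembly built a transcript locus that carries no gene symbol and overlaps no locus with one on the same chromosome, in either strand. They were selected on their level: across the 18 samples their normalized counts averaged 10 or more. Of the 168136 loci in the data, 4494 met the rule. Another 106527 intergenic loci without a symbol lay below that mean. The 2 loci just inside had means of 10.001 (XLOC_095765) and 10.002 (XLOC_127355), and the 2 just outside 9.9965 (XLOC_081460) and 9.9952 (XLOC_063573). Since the mean over all samples chose the loci, levels are given as a description. Compartment and treatment did not enter the rule.

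RNA came from Neuro2A (N2A), a wild type mouse neuroblastoma cell line. In the pulldown assay a biotinylated miRNA mimic is transfected, and RNA held by it is collected on beads and sequenced. The 6 groups of 3 samples were nuclear control, nuclear Scr, nuclear *miR-92b*, whole cell control, whole cell Scr and whole cell *miR-92b*, where control cells were untransfected and the other cells received a scrambled (Scr) or *miR-92b* mimic with biotin at 25 nM. Libraries were made from RNA selected with oligo-dT, which holds RNA with a poly(A) tail or an internal run of A. The labels do not say whether the 3 samples of a group came from separate cultures, so p-values measure the spread between these samples, which may be technical.

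Much of the genome between genes is transcribed at a low level. The products include long non-coding RNAs (lncRNAs), RNA from enhancers, read-through past the ends of genes and copies of repeats and pseudogenes. Many lncRNAs are kept in the nucleus, near the chromatin where they are made, whereas most mRNAs are exported to the cytoplasm and translated.

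Total reads recovered from the table ran from 4188987 to 25621919 per sample. The compartments carried their known RNAs: 3 of 5 tested nuclear RNAs (*Malat1*, *Neat1*, *Kcnq1ot1*) were higher in nuclear samples, and 7 of 7 cytoplasmic mRNAs were lower, with *Gapdh* at a log2 fold change of -2.35 ± 0.19 (SE). Of 13 sympathetic neuroblastoma markers, 11 reached the mean of 10. Of 8 glia, fibroblast and blood markers 3 reached it, and the 8 summed to between 84 and 218 normalized counts in nuclear and between 85 and 324 in whole cell samples. Their part in the results was not tested.

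The libraries of 4 samples stood apart from the others of their compartment. At least 1 read fell on 4338 to 4461 of the intergenic loci in 6 nuclear samples, but on 3323 in nuclear control 3, 3003 in nuclear Scr 2 and 3203 in nuclear Scr 3. In whole cell samples the number was between 2006 (*miR-92b* 3) and 3974 (control 3). It was 2875 in whole cell Scr 1, 3075 in whole cell *miR-92b* 2 and 3265 in whole cell Scr 3. Low detection was thus not confined to the 4 libraries. Thinning every sample to 4188987 reads hardly moved these numbers, to 2974 in nuclear Scr 2 and 1902 in whole cell *miR-92b* 3. The 15579 loci with a symbol that passed the same mean showed a smaller fall, from 99.7% with a read in nuclear *miR-92b* 3 to 83.3% in whole cell *miR-92b* 3. Results are given with and without these libraries where they rest on them.

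The sequence of these intervals was not analysed here, but some hold the annotated start of a lncRNA in RefSeq (GRCm38.p6, the build of the files). A fixed window around that start is called the promoter here. The start of a lncRNA in the RefSeq table used lay inside 123 of the intergenic loci, and 18 of these (14.6%) were higher in nuclear samples, against 15.3% of all 21010 tested loci. The promoters of the 4 with the highest mean among these 18 are shown, each from 250 bases before to 50 after the start. They mark where an annotated lncRNA begins inside such a locus, and were chosen after values were seen. The strand of the loci is not listed, so RNA of a locus need not start there. Capitals mark matches, on either strand, to TATAAA (the TATA box), CCAAT and GGGCGG (a GC box), and no matches overlapped.
A630089N07Rik in XLOC_064796, chr16:98082390-98082689, minus strand: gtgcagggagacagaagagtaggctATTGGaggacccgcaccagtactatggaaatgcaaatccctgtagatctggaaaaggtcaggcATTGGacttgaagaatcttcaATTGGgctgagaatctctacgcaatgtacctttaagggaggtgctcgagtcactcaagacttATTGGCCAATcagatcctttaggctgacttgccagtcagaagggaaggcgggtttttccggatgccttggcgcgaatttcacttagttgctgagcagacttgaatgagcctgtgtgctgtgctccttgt
Gm51794 in XLOC_015252, chr10:9008514-9008813, plus strand: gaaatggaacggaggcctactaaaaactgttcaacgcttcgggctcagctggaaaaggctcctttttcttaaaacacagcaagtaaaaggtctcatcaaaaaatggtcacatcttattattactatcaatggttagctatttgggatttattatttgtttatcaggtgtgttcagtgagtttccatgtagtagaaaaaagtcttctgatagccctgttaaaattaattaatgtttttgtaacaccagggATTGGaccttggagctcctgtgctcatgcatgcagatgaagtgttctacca
Gm33293 in XLOC_119310, chr5:67231637-67231936, minus strand: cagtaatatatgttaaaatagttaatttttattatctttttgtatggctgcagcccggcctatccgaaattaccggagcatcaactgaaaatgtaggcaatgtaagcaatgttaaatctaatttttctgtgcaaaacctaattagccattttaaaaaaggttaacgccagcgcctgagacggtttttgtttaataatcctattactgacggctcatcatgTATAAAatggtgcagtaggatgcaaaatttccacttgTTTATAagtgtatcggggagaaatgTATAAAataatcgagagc
Gm51991 in XLOC_032954, chr12:32110695-32110994, plus strand: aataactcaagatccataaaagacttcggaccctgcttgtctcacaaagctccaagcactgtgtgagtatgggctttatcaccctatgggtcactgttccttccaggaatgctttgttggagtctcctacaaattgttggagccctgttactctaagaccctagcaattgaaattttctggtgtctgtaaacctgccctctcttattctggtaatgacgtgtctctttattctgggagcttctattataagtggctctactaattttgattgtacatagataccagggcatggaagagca

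The promoter of A630089N07Rik held 5 CCAAT matches, that of Gm51794 held 1, that of Gm33293 held 3 TATAAA matches, and none of the 3 motifs was found in that of Gm51991. Over all 32851 RefSeq promoters of this length, TATAAA was found in 13.6%, CCAAT in 37.4% and GGGCGG in 35.7%. Over the 88 lncRNA promoters that overlap an intergenic locus of the set, the shares were 14.8%, 28.4% and 23.9%, and over all 11588 lncRNA promoters 15.5%, 36% and 16.3%. A match is a string of letters, and binding was not measured.

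For the pulldown, the bait and its possible pairing sites are shown. Capitals in the miRNA mark the seed (bases 2 to 8), with which miRNAs pair to their targets, and capitals in the sites mark the complement of that seed, GTGCAAT. The sites lie in GENCODE M21 non-coding transcripts, within the interval of an intergenic locus.
mmu-miR-92b-3p, chr3:89227126-89227147, minus strand: uAUUGCACucgucccggccucc
CT010445.1 in XLOC_070869, chr17:74188752-74188779, minus strand: gatgcgctaaGTGCAATgaggtatgtac
4933433G19Rik in XLOC_037725, chr13:67007356-67007383, minus strand: gcaaaggtctGTGCAATcatagggttta
AC131323.5 in XLOC_068881, chr17:25538861-25538888, minus strand: agactaacagGTGCAATttatcccaaga
Gm48768 in XLOC_018044, chr10:99106124-99106151, minus strand: aattatgtaaGTGCAATaccgtattagt

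The intergenic loci were mostly low and short. Their mean normalized count, the reads on a locus divided by a size factor of the sample, had a median of 21, with 90% at or below 125 and the highest at 35519. Per length, the median was 1.81 FPKM (fragments scaled to transcript length and library size), against 7.26 FPKM for the 15579 tested loci with a symbol. The listed interval had a median length of 2097 bases and a maximum of 233238. A few loci held most of the signal, since the 10 highest carried 20.8% and the 100 highest 51.4% of the summed means. Reads fell on 901 of the loci in all 18 samples, and the median locus was at 0 in 4 samples.

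Some of the loci are less isolated than the rule implies. The nearest locus with a symbol lay at a median of 7674 bases, 10% had one within 177 bases, and 2636 (58.7%) had none within 5000. Of the 4494, 459 shared their listed interval exactly with another, on 100 intervals, and the files do not list the strand, so these values cannot be assigned to separate transcripts by position. In newer annotation 1142 overlapped a RefSeq gene, of which 644 overlapped a lncRNA and 422 a protein-coding gene. A GENCODE M21 gene overlapped 546, and 3188 overlapped neither.

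The first comparison asks what share of reads fell on these intergenic loci in nuclear and in whole cell samples. The libraries hold RNA from a pulldown, and whole cell samples include the nucleus. A share is thus not a measure of how the RNA of a cell is divided. Reads on the 4494 loci made up 8.08% ± 0.768 (SD, n = 3) of all reads in nuclear control, 7.87% ± 0.637 in nuclear Scr and 7.96% ± 0.845 in nuclear *miR-92b* samples. The share was 4.55% ± 0.0725 in whole cell control, 5.48% ± 0.172 in whole cell Scr and 4.36% ± 1.8 in whole cell *miR-92b* samples. All 9 nuclear shares, between 7.02% and 8.81%, lay above the 9 whole cell shares, between 2.28% and 5.68%. The lowest was whole cell *miR-92b* 3 (95% Wilson interval 2.273% to 2.29%), and the other 8 whole cell samples held at least 4.5%. No 95% interval was wider than ± 0.0256 percentage points, which covers counting error only.

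Over the 9 nuclear samples the share was 7.97% ± 0.66 (SD, n = 9), and over the 9 whole cell samples 4.8% ± 1.04, a difference of 3.17 percentage points (two-sided exact permutation test, p = 4.11e-05, the smallest this design gives). Without whole cell *miR-92b* 3 the difference was 2.86 points. It was 2.74 points when the 3 nuclear libraries with few detected loci were left out as well (exact permutation test, p = 0.000333, the smallest for 6 against 8 samples). With the 8 highest loci left out, the remaining loci held 6.45% ± 0.543 of nuclear and 3.94% ± 0.847 of whole cell reads. Loci with no symbol locus within 5000 bases held 5.48% ± 0.436 against 3.28% ± 0.704 (exact permutation test, p = 4.11e-05). Of the 4494 loci, 968 reached the mean of 10 only in nuclear samples and 225 only in whole cell samples. The share was not tested without these. The 106527 intergenic loci without a symbol below that mean held 0.905% to 3.81% of nuclear reads and 1.47% to 3.59% of whole cell reads. For these the compartments overlapped. Values are relative to all reads of a library, and in bulk samples fewer cells of a type and less RNA per cell cannot be told apart.

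**Figure D1:**
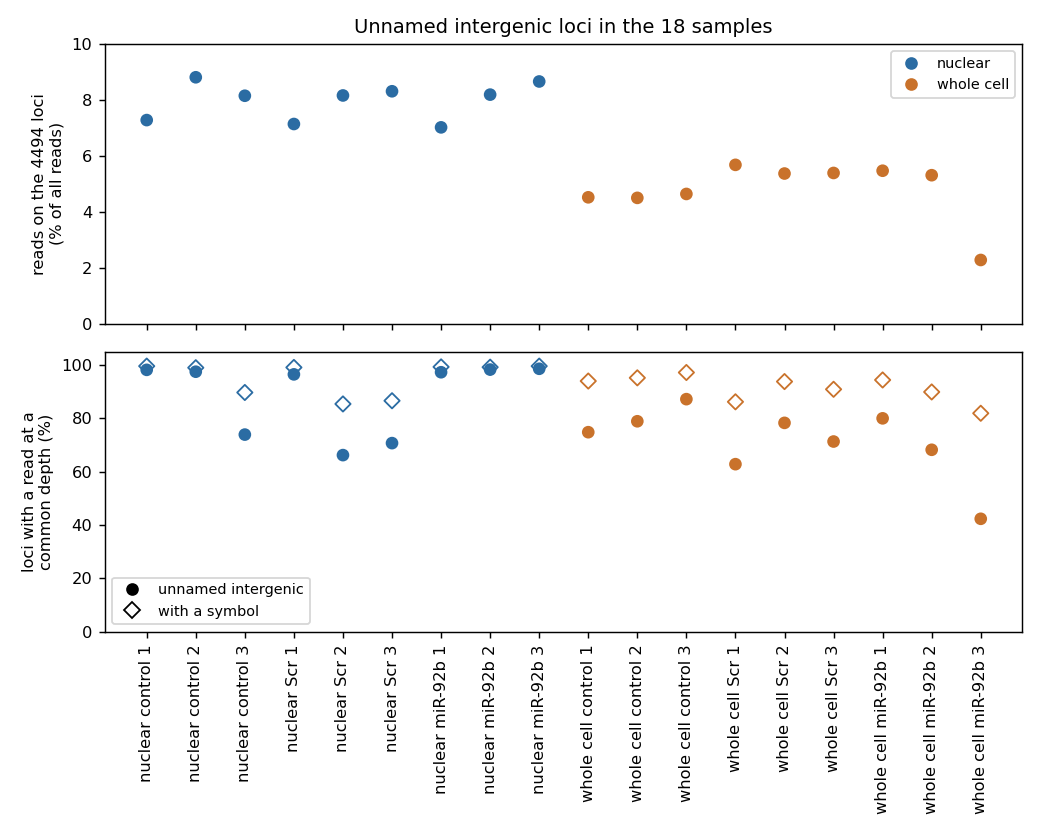
Reads on the 4494 unnamed intergenic loci as a percent of all reads (top) and the percent of loci expected to have a read when each sample is thinned to 4188987 reads (bottom; circles for intergenic loci, diamonds for loci with a symbol), for the 18 samples. The nuclear shares lie above the whole cell shares, whole cell miR-92b 3 is lowest in both panels, and nuclear control 3, Scr 2 and Scr 3 have fewer loci with a read than the other nuclear samples.

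Locus by locus, the compartment difference went almost entirely one way. In nuclear against whole cell samples over the 3 treatments, 775 of the 4494 intergenic loci were higher in nuclear samples (17.2%) and 15 were lower (0.334%) at an adjusted p of 0.05 (limma, Benjamini-Hochberg over 21010 loci). Over all 21010 tested loci 15.3% were higher and 11.3% lower. The share called higher was thus near the background, and the share called lower was far below it. This background was not matched for level, and shares by level are given below. The median log2 fold change was 0.99, against 0.14 for loci with a symbol, and 86.8% of the intergenic values were above 0. The intergenic median was 0.57 with a pseudocount of 8, 0.70 by edgeR and 0.74 by DESeq2.

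A locus high in 1 compartment can reach the mean of 10 through it alone. In 3301 loci the mean reached 10 within each compartment. Of these, 568 were higher and 11 lower, and the median was 0.88. Only the nuclear mean reached 10 in 968 (207 higher, 0 lower), and only the whole cell mean in 225 (0 higher, 4 lower). For 2 loci no whole cell library had a read. With these at their lower bound the median stayed at 0.99.

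On log2(normalized count + 1), the count of calls followed the level, whereas the size of the difference hardly did. From a mean of 10 to 20, 180 of 2143 loci (8.4%) were higher in nuclear samples, with a median log2 fold change of 1.03. Between 100 and 300 it was 173 of 351 (49.3%), with a median of 0.85. From 1000 upward it was 61 of 65 (93.8%), with a median of 0.93. Loci with a symbol at the same levels had medians of 0.73, -0.05 and 0.17, and 5.98%, 14.3% and 40.5% of them were higher. At each of these levels the intergenic share was the larger. On this scale the median thus differed little between low and high intergenic loci, and a larger share passed the test at high levels. With a pseudocount of 8 the median of all 4494 loci was 0.57, whereas the highest locus, XLOC_075712, stayed at 0.83. Medians by level were not computed with other pseudocounts, so the likeness of low and high loci may depend on the scale.

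**Figure D2:**
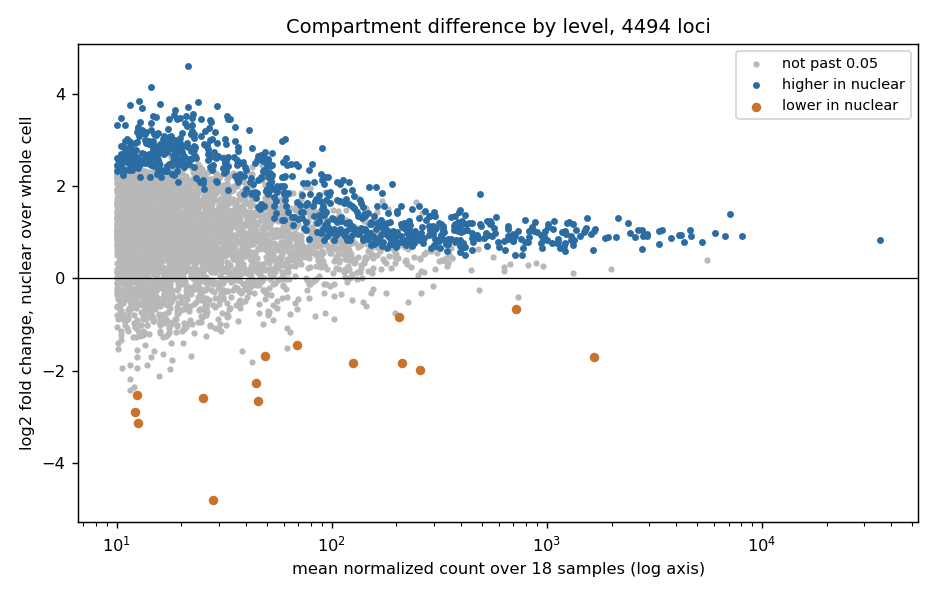
Log2 fold change of nuclear over whole cell samples against the mean normalized count over 18 samples (log axis) for the 4494 loci, with loci higher (775) and lower (15) in nuclear samples in colour. Called loci at high levels cluster near a log2 fold change of 1, and larger values are seen at low levels, where the scatter is wide.

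The median differed little with the distance from annotated loci. It was 0.99 for the 856 loci within 1000 bases of a locus with a symbol and 1.12 for the 257 that were 100000 bases or more away, with 17.3% and 21.4% called higher. Loci that overlapped a RefSeq lncRNA had a median of 0.94 (95 of 644 higher), and loci without a RefSeq gene 1.02 (590 of 3352). For 1259 loci the nearest symbol locus lay within 5000 bases and was tested. The median was 0.96 for these and 0.31 for their 891 distinct neighbours, taken once per pair, and the intergenic value was the larger in 914 pairs (72.6%). By the test the intergenic locus was higher in 213 of the 1259 pairs and its neighbour in 316, so by calls the neighbour was more often higher. Over all 21010 tested loci 15.3% were higher. The pairs were not matched for level. Both were higher in 90 pairs, for which no expected number was computed. In 20 the intergenic locus was higher while its neighbour was lower. Across the pairs r was 0.0719, as a description, since pairs share libraries and some share a neighbour.

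The highest locus was XLOC_075712 on chr18:28353996-28444135, which overlaps the RefSeq gene Gm6643 and lies 41791 bases from the nearest symbol, Gm24246. It carried 8.38% of the summed means. Its normalized counts were 38054, 47050 and 48052 in nuclear control, 41944, 47340 and 49617 in nuclear Scr, and 42469, 44202 and 46730 in nuclear *miR-92b* samples. In whole cell samples they were 24957, 24189 and 25399 in control, 29744, 29304 and 31762 in Scr, and 27938, 28608 and 11991 in *miR-92b*. The compartments did not overlap, and whole cell *miR-92b* 3 was far below the other whole cell samples. The log2 fold change was 0.83 ± 0.14 (SE), with an adjusted p of 5.22e-05 by limma.

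XLOC_003639 had the largest difference of the 8 highest loci. It lies on chr1:148279162-148296108, 24520 bases from Gm22966, and overlaps no gene in either annotation. It read 7362, 9960 and 13641 in nuclear control, 8596, 13179 and 10586 in nuclear Scr and 9572, 9498 and 9864 in nuclear *miR-92b* libraries, against 4236, 3823 and 3980 in whole cell control, 4584, 4576 and 5283 in whole cell Scr and 4086, 3701 and 1670 in whole cell *miR-92b* samples. The groups did not overlap (log2 fold change 1.39 ± 0.14, limma adjusted p = 8.81e-08), and the locus passed the threshold within each treatment, at 1.32 in control, 1.15 in Scr and 1.72 in *miR-92b* cells.

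Of the other 6, all but XLOC_051721 were higher in nuclear samples. XLOC_115105 on chr5:80062305-80098174, 84 bases from Gm24304, had a nuclear median of 10286 and a whole cell median of 6006 (log2 fold change 0.92 ± 0.12). XLOC_145777 on chr8:113286904-113308891 had 6519 against 3928 (0.80 ± 0.13), and XLOC_075772 on chr18:29977130-30016040 had 6231 against 3288 (0.91 ± 0.13). These 3 had groups that did not overlap. XLOC_075772 lies far from annotated genes, 256706 bases from *Pik3c3*, which encodes a lipid kinase of autophagy. In XLOC_117638 on chr5:7621959-7671759 (0.92 ± 0.16) and XLOC_098380 on chr3:6785531-6800236 (0.99 ± 0.15) the groups overlapped, as nuclear *miR-92b* 1 held the lowest nuclear value of each, 5544 and 5767, and whole cell samples reached 6108 and 6261.

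XLOC_051721 did not pass. It lies on chr15:26911217-26953465, 3785 bases from *Fbxl7*, which encodes an F-box protein. Its nuclear counts spread from 3464 in *miR-92b* 1 to 9261 in *miR-92b* 3, with a median of 5790, and its whole cell counts from 2678 to 6531, with a median of 4798. The log2 fold change was 0.40 ± 0.18, with a limma adjusted p of 0.104, which fell to 0.0124 without nuclear *miR-92b* 1 and to 0.0444 without whole cell *miR-92b* 1. Per length this locus was at a mean level of 115 FPKM and was second of the 8 to XLOC_075712, which was at 136 FPKM.

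**Figure D3:**
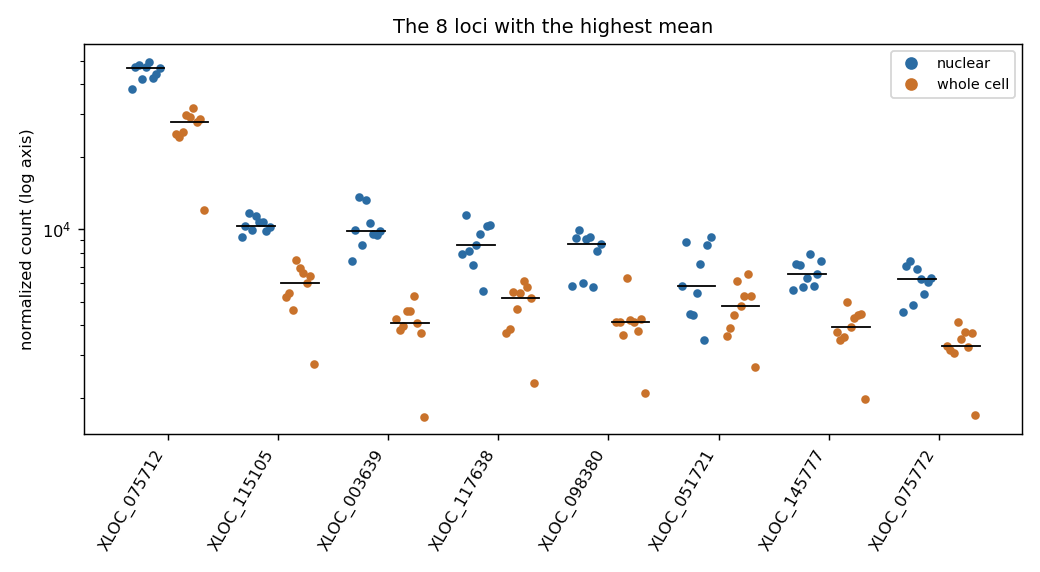
Normalized counts (log axis) of the 8 loci with the highest mean, with 9 nuclear and 9 whole cell samples as points and the median as a line. In 5 of the 8 loci every nuclear sample lies above every whole cell sample, and whole cell miR-92b 3 is the lowest point of each locus.

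Complete separation of the compartments was seen for 100 of the intergenic loci with all nuclear values above the whole cell values (2.23%, against 2.74% of all 21010 loci) and for 1 with all below (0.0223%, against 3.27%). All of these also passed the test. The 8 with the largest log2 fold change were low, with means from 14.5 to 89.9. Of these, XLOC_041700, XLOC_088662, XLOC_005577 and XLOC_012596 reached the mean of 10 only through the nuclear samples, where they are high, so their values are a description.

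XLOC_041700 on chr13:67223190-67224212 lies 3588 bases from *Zfp458*, a gene of the KRAB zinc finger family. It had no read in any of the 9 whole cell samples. In nuclear samples it read 10.1, 14.8 and 66.4 (control), 7.62, 72.5 and 66.8 (Scr) and 15, 1.68 and 6.43 (*miR-92b*), from 202 reads in all. The 3 high values belong to the 3 nuclear libraries with the fewest detected loci. Against a floor of 3 reads over the whole cell group, the nuclear mean of 29 ± 30 (SD, n = 9) was at least 98.8-fold higher. This is a ratio of means, and the 3 high values make up most of the nuclear mean. The fitted log2 fold change was 4.14 ± 0.73, and 3.20 without those 3 libraries.

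XLOC_088662 on chr2:27512016-27515107 lies 49 bases from *Wdr5*, which encodes a subunit of histone methyltransferase complexes. Nuclear values lay between 17.8 and 71.9 with a median of 28.2, and whole cell values between 0 and 17.3, with 6 of 9 samples at 0 (log2 fold change 3.65 ± 0.81). XLOC_005907 on chr1:18265290-18271377, 151 bases from Gm17837, was the most abundant of the 8, with 90.2 to 218 in nuclear and 0 to 70.9 in whole cell samples (2.83 ± 0.62). XLOC_094864 on chr3:48099501-48101092 had 63.5 to 224 in nuclear samples. It read 0, 21.4 and 0 in whole cell *miR-92b* samples against 17.2 to 52.6 in the other whole cell samples (2.61 ± 0.60).

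The other 4 of these loci were XLOC_005577 (chr1:5799485-5801144, 3.56 ± 0.80), XLOC_012596 (chr10:67558489-67562016, 9374 bases from *Ado*, 2.77 ± 0.79), XLOC_117961 (chr5:25265924-25269094, 5 bases from E130116L18Rik, 2.60 ± 0.79) and XLOC_001945 (chr1:78217157-78221878, 20022 bases from *Pax3*, 2.59 ± 0.75), as log2 fold change ± SE. *Pax3* encodes a transcription factor of the neural crest, and XLOC_001945 overlaps the RefSeq gene Gm2102. Without the 3 nuclear libraries with few detected loci, XLOC_012596, XLOC_117961 and XLOC_001945 no longer passed (adjusted p of 0.0675, 0.0792 and 0.0745 by limma), with log2 fold changes of 2.57, 2.50 and 2.45. On recovered reads XLOC_117961 did not pass by edgeR (log2 fold change 1.76, adjusted p = 0.171) or DESeq2 (1.82, adjusted p = 0.056), and XLOC_012596 did not by edgeR (2.26, adjusted p = 0.0874).

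The 4 loci whose promoters are shown were chosen as higher in nuclear samples, so their values are a description. In XLOC_064796, which holds the start of A630089N07Rik, nuclear values lay between 856 and 1359 with a median of 1212, and whole cell values between 444 and 1111 with a median of 757 (log2 fold change 0.67 ± 0.15). XLOC_015252 with Gm51794 had medians of 1005 and 591 (0.85 ± 0.19), XLOC_119310 with Gm33293 678 and 470 (0.68 ± 0.16), and XLOC_032954 with Gm51991 367 and 242 (0.97 ± 0.35). In all 4 loci the compartments overlapped.

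The 15 loci lower in nuclear samples were short, with a median length of 514 bases against 3817 for the 775 higher ones. Except for XLOC_028577 they were named after their values were seen. XLOC_028577, on chr12:10159540-10159775, overlaps the RefSeq gene Gm5182 and was 210197 bases from *Nt5c1b*. It was at 0 in 7 nuclear samples and at 2.69 and 3.16 in nuclear control 2 and 3, from 4 reads. Whole cell values were 90.5, 77.8 and 28.8 in control, 21.9, 145 and 66.5 in Scr and 6.3, 54.3 and 7.65 in *miR-92b* samples. The log2 fold change was -4.81 ± 0.76. This locus, like XLOC_098983, XLOC_118456 and XLOC_141767, reached the mean of 10 only through the whole cell samples, where it is high, so its values are a description.

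The most abundant of the 15 was XLOC_093758, 439 bases on chr3:5860337-5860775. It read 374, 649 and 870 in nuclear control, 408, 2273 and 1235 in nuclear Scr and 796, 324 and 518 in nuclear *miR-92b* libraries. It read 4620, 3679 and 2181 in whole cell control, 3277, 1077 and 1916 in whole cell Scr and 2743, 1119 and 1851 in whole cell *miR-92b* samples. Nuclear Scr 2 was the highest nuclear sample and overlapped the whole cell range (log2 fold change -1.71 ± 0.27, limma adjusted p = 4.41e-05).

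Another 4 short loci on separate chromosomes were low and high in much the same samples. XLOC_050698 (chr14:104715774-104716070, in D130009I18Rik, -1.98 ± 0.33), XLOC_122286 (chr6:3201328-3201608, -1.83 ± 0.42), XLOC_074247 (chr18:68692061-68692314, in Gm30821, -1.83 ± 0.38) and XLOC_142191 (chr8:15519775-15520083, -1.45 ± 0.52) also had nuclear Scr 2 or Scr 3 as the highest nuclear sample, at 304, 967, 165 and 106. Over the 18 samples r between pairs of the 5 loci, on log2(normalized count + 1), was 0.798 to 0.952. Among loci with a symbol, the profile most like that of XLOC_093758 was XLOC_063728, 1 of 65 tested loci listed under *Filip1l* on the same interval (r = 0.987), which had medians of 501 in nuclear and 1299 in whole cell samples. These r values are a description over samples that share libraries and compartments.

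Of the remaining members of the 15, XLOC_166990 on chromosome Y (log2 fold change -0.67 ± 0.17) and XLOC_150138 on chr8 (-0.83 ± 0.22) had counts in every sample, at medians of 540 against 863 and 128 against 263. XLOC_150138 did not pass when loci with a mean of at least 1, or all loci, were tested (limma adjusted p of 0.105 and 0.213). XLOC_146677 (-2.27 ± 0.67) and XLOC_146678 (-1.68 ± 0.58) lie side by side on chr8:13682206-13686607 and chr8:13687116-13691237, between *Rasa3* and 4932443I19Rik, and both overlap the RefSeq gene Gm46032. The other 5, XLOC_081380, XLOC_098983, XLOC_118456, XLOC_130398 and XLOC_141767, had means between 12.2 and 45.7 and were at 0 in 3 to 6 nuclear samples.

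Of the 15 calls, 4 lay near the threshold, so that leaving out 1 library could move them past it while the log2 fold change kept its direction. XLOC_081380 lost its call without any 1 of 14 libraries (limma adjusted p of 0.0509 to 0.111), that is all but nuclear control 1, nuclear Scr 1, whole cell Scr 1 and whole cell *miR-92b* 2, with log2 fold changes of -3.30 to -2.26 over the 18 libraries. XLOC_141767 lost it without any 1 of 13 (0.0502 to 0.132), all but nuclear control 2, nuclear *miR-92b* 1, whole cell control 3 and whole cell *miR-92b* 1 and 2, with log2 fold changes of -3.11 to -1.90. XLOC_142191 lost it without any 1 of 12 (0.0521 to 0.0933), all but nuclear control 3, Scr 2, Scr 3 and *miR-92b* 1, whole cell Scr 2 and whole cell *miR-92b* 2, with log2 fold changes of -1.73 to -1.18. XLOC_146678 lost it without nuclear control 3, any nuclear *miR-92b* sample, whole cell control 1 or 3, whole cell Scr 2 or whole cell *miR-92b* 2 (0.0535 to 0.0658), with log2 fold changes of -1.93 to -1.23. Without the 3 nuclear libraries with few detected loci, 5 calls were lost, those of XLOC_081380, XLOC_118456, XLOC_141767, XLOC_146677 and XLOC_146678 (limma adjusted p of 0.27, 0.0587, 0.171, 0.0926 and 0.0825).

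**Figure D4:**
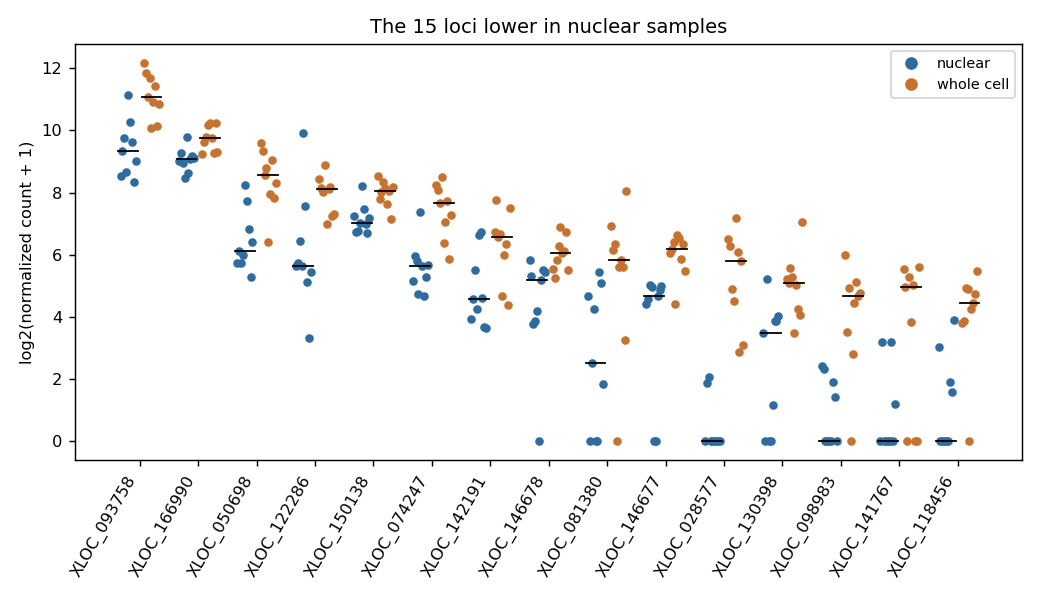
Log2(normalized count + 1) of the 15 loci lower in nuclear samples, ordered by mean, with 9 nuclear and 9 whole cell samples as points and the median as a line. Only in XLOC_028577 do the compartments not overlap, and the loci at the right have nuclear samples at 0.

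The intergenic loci were not spread evenly. When loci at most 10000 bases apart were joined, they formed 1767 clusters, of which 948 held 1 locus and 62 held 10 or more. The 62 held 1079 of the 4494 loci and 41.2% of the summed means. In 61 of the 62 the median log2 fold change was above 0, and 236 of their loci (21.9%) were higher in nuclear samples and 0 lower, against 15.3% and 11.3% of all loci. In 17 the summed counts of the 9 nuclear samples all lay above those of the whole cell samples. Clusters of loci with a symbol were not formed, so the 61 and the 17 are a description. Of all 4494 loci, 86.8% had a log2 fold change above 0.

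The largest sum was on chr18:28070011-28446500, which holds XLOC_075712 and 25 further loci on both sides of Gm24246. Summed counts ran from 48445 to 61051 in nuclear and from 15187 to 39834 in whole cell samples, and the whole cell value was 29827 or more without *miR-92b* 3. Next were 27 loci on chr10:9081101-9236147 (17523 to 30953 against 6547 to 17502), where the lowest nuclear value, in *miR-92b* 1, lay just above the highest whole cell value. The 20 loci on chr10:8967861-9062886 end just short of it, at 54 bases from RP23-5H4.2, and include XLOC_015252 with the Gm51794 promoter. A cluster of 20 on chr13:89337271-89480718 lies between *Edil3* and *Hapln1*, both genes of extracellular matrix proteins, and ran from 7992 to 11831 against 1993 to 6444.

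The cluster with most loci was on chr8:82414487-82575879, 51 loci over 161393 bases between Gm25138, 276 bases away, and Gm8167, 120 bases away. All 51 had a log2 fold change above 0, from 0.21 to 2.91, and 33 were higher in nuclear samples. Summed counts were 12909, 20523 and 13614 in nuclear control, 11420, 18185 and 19266 in nuclear Scr and 8733, 18870 and 21238 in nuclear *miR-92b* samples. Whole cell sums were 6021, 6610 and 7947 in control, 9250, 7847 and 10395 in Scr and 7724, 7215 and 3856 in *miR-92b* samples. Only nuclear *miR-92b* 1 overlapped the whole cell range. Its highest locus was XLOC_149657, with a mean of 1864 and a log2 fold change of 0.88 ± 0.17, which shares its listed interval with 16 other loci of the cluster.

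**Figure D5:**
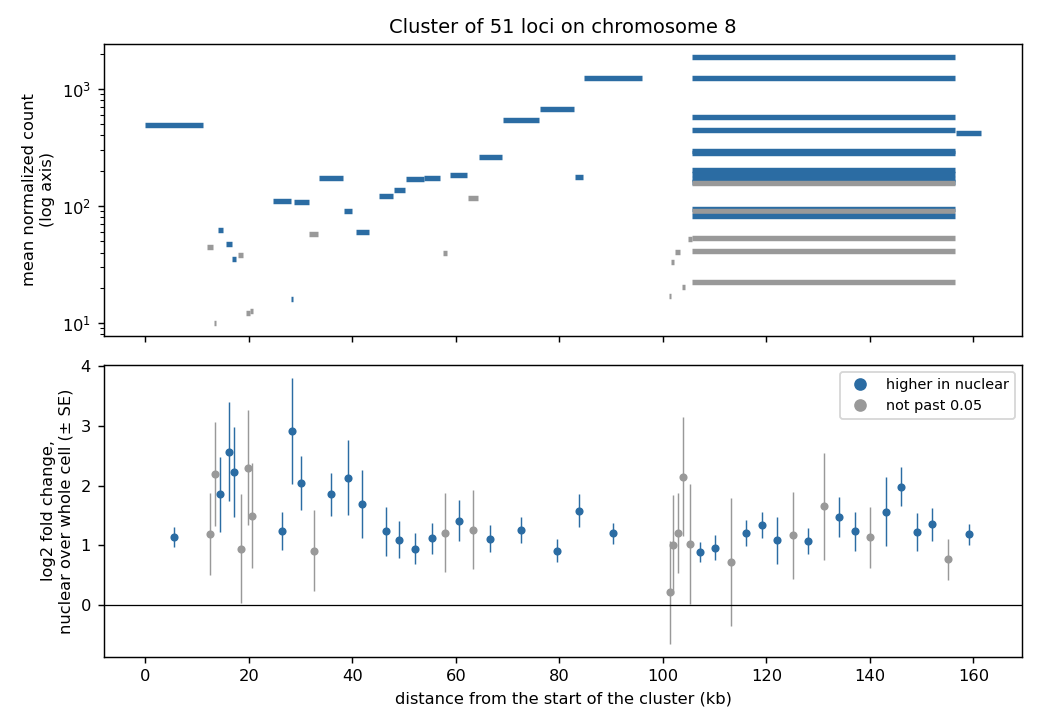
Mean normalized count (top, log axis, each bar a listed interval) and log2 fold change of nuclear over whole cell samples with its SE (bottom) for the 51 loci of the cluster on chromosome 8, by distance from its start in kb. Points of the 17 loci that share 1 interval are spread over it, and all 51 points lie above 0, with 33 past the threshold.

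Within single treatments fewer loci passed. In control cells 123 of the intergenic loci were higher in nuclear samples (2.57% of all loci were) and 4 lower (4.66%). The median log2 fold change was 0.87 (0.24 over all loci). The 127 calls became 42 without nuclear control 2, 35 without nuclear control 3, 51, 54 and 83 without whole cell control 1, 2 and 3, and 274 without whole cell *miR-92b* 3, which enters this comparison only through the shared spread. In *miR-92b* cells 323 were higher (6.39% of all loci) and 3 lower (4.71%), with a median of 1.60 (0.57 over all loci). The intergenic median was 0.83 with a pseudocount of 8, 0.81 by edgeR and 0.77 by DESeq2. Over all loci these were 0.36, 0.22 and 0.19. The 326 calls became 173, 102 and 97 without nuclear *miR-92b* 1, 2 and 3, and 573 and 120 without whole cell *miR-92b* 1 and 3, and the median was 0.91 without the last.

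In Scr cells 43 were higher (0.99% of all loci) and 6 lower (2.28%), with a median of 0.50 (0.09 over all loci). Its 49 calls became 83, 7 and 11 without nuclear Scr 1, 2 and 3, 16, 30 and 31 without whole cell Scr 1, 2 and 3, and 210 without whole cell *miR-92b* 3. Leaving out a sample of another group gave 24 and 23 without nuclear control 1 and 2, 26, 19 and 19 without nuclear *miR-92b* 1, 2 and 3, and 29, 27 and 27 without whole cell control 1, 2 and 3. Without the 3 nuclear libraries with few detected loci, 2 of which are Scr samples, 1 call was left (173 of all loci). It was lower in nuclear samples, and the intergenic median was 0.81 (0.29 over all loci). The calls were 58 higher and 25 lower without nuclear Scr 1, and 4 higher and 3 lower without nuclear Scr 2, so the balance of calls in Scr cells depended on single libraries. In each treatment the share of intergenic loci called higher was near that of all loci, and the share called lower was below it. These shares were not matched for level.

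Whether treatment changed the compartment difference was asked with an F test of both interaction contrasts. It called 0 of the intergenic loci (0 of 21010 in all, 0%), with 231 of 4494 at an unadjusted p under 0.05 (937 of all 21010). EdgeR called 0 (1 of all loci) and DESeq2 3 (8 of all loci). The smallest p was that of XLOC_026931 on chr11:96813045-96813875, 3105 bases from *Nfe2l1*, which encodes a transcription factor of proteasome genes (limma, adjusted p = 0.954). It had 28.9, 33.4 and 56 in whole cell Scr but 0, 0 and 0 in whole cell *miR-92b* samples, against 9.14, 0 and 0 in nuclear Scr and 20.5, 30 and 29.6 in nuclear *miR-92b* samples.

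The pulldown comparison asks which RNA was collected with *miR-92b* beyond Scr. The median log2 fold change of the intergenic loci in nuclear samples was 0.47 by limma, 0.07 by edgeR and -0.01 by DESeq2. Over all loci it was 0.15, 0.07 and -0.01. Limma called 0 intergenic loci there (0% of all loci), with 202 of 4494 at an unadjusted p under 0.05 (910 of all 21010). EdgeR called 0 and DESeq2 8 (11 of all loci). The 2 smallest p belonged to XLOC_122286, with 34.1, 9.09 and 42.4 in *miR-92b* against 48.8, 967 and 189 in Scr samples (limma, adjusted p = 1), and to XLOC_131241 on chr7:5638178-5639820, 26109 bases from the pheromone receptor gene *Vmn1r61*, with 19.1, 29.3 and 23.1 against 0, 0 and 0. XLOC_131241 was also present in nuclear control samples, at 20.2, 16.1 and 41.1. Both were named after their values were seen.

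In whole cell samples limma called 0 intergenic loci (0.00476% of all loci, a single one), with 501 of 4494 at an unadjusted p under 0.05 (2086 of all 21010). EdgeR called 0 (1 of all loci) and DESeq2 134, 59 higher and 75 lower (348 of all loci). The intergenic median log2 fold change by limma was -0.45, and 0.03 without whole cell *miR-92b* 3. Over all loci it was -0.07 and 0.03. The limma count was 39 without whole cell *miR-92b* 1 (139 of all loci) and 5 without whole cell *miR-92b* 2 (13 of all loci). In nuclear samples it was 6 without nuclear Scr 1 (45 of all loci). The smallest p was that of XLOC_126578 on chr6:13616041-13621848, 89 bases from *Bmt2*, with 70.1, 77 and 16 in Scr and 3.6, 0 and 0.637 in *miR-92b* samples (log2 fold change -4.54 ± 0.92, adjusted p = 0.189 by limma). In nuclear samples it showed no such gap, with 41.1, 148 and 71.9 in Scr and 49.2, 110 and 83.6 in *miR-92b* samples. It was named after its values were seen.

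Whether loci near a seed match differed was not tested, and values are given as a description. A GENCODE M21 non-coding gene overlapped 294 of the intergenic loci by 130 genes, 12 of which held GTGCAAT (9.23%, against 5.37% of 13374 non-coding genes). These shares were not matched for the length of the genes or their number of transcripts. In 4 of the 12 genes, those shown, the site was found inside the interval of a locus. The strand of the loci is not listed, so a site need not lie in RNA of the locus. The 27 loci that overlap any part of such a gene had a median log2 ratio of *miR-92b* to Scr of 0.51 (nuclear) and -0.33 (whole cell). For the 267 that overlap only genes without it the medians were 0.51 and -0.47, and for all 4494 loci 0.47 and -0.45. In whole cell samples 5 of the 27 and 24 of the 267 had an unadjusted p under 0.05 by limma, and in nuclear samples 2 and 7. For all 4494 loci the counts were 501 (whole cell) and 202 (nuclear), and for all 21010 tested loci 2086 and 910. XLOC_070869, with the CT010445.1 site, had 83.3, 128 and 145 in nuclear *miR-92b* against 107, 152 and 218 in nuclear Scr samples. In whole cell samples it had 30.6, 82.8 and 119 against 155, 154 and 158 (log2 fold change -1.20 ± 0.49, limma adjusted p = 0.444), so that every *miR-92b* value lay below the Scr values. XLOC_037725, with the 4933433G19Rik site, had 5.4, 0 and 0 in whole cell *miR-92b* against 19.3, 13.2 and 46.1 in whole cell Scr samples (log2 fold change -3.68 ± 1.03, adjusted p = 0.284 by limma), and this locus was higher in nuclear than whole cell samples over the 3 treatments (2.65, limma adjusted p = 0.00164). In nuclear samples XLOC_037725 had 50.5, 58.3 and 72 against 54.8, 135 and 105. The log2 fold changes of *miR-92b* over Scr for XLOC_068881, with the AC131323.5 site, were -0.58 ± 1.55 (nuclear) and -0.50 ± 1.55 (whole cell). For XLOC_018044, with the Gm48768 site, they were 0.63 ± 1.52 and 1.01 ± 1.52, and neither locus passed the test.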

How the data were processed

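Poly(A)-selected RNA collected in a biotin pulldown was sequenced from 18 N2A samples, 6 groups of 3, grouped by their labels. Per the labels, the authors converted reads with bcl2fastq 2.17, trimmed them with Trimmomatic 0.30, aligned them to GRCm38 (mm10) with TopHat2 and assembled and quantified loci with Cufflinks (neither version is stated in the labels or methods). The deposited signal is a table of read counts divided by size factors (normalized counts). Whole reads could be recovered, since 634902 of 635205 values above 0 (99.95%) lay within 0.02 of a whole read. The FPKM values deposited by the authors served as level per length and as an alternative. The deposited tables of the authors' own comparisons hold fold changes and p-values and were not used.

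The loci and lists were chosen with earlier results of these data known. Since the values were normalized and not raw counts, the main test was limma 3.58.1 (trend) in R 4.3.3 on log2(normalized count + 1), a scale on which fold changes of low loci depend on the pseudocount and on samples at 0. 1 model with the 6 groups was fitted to the 21010 loci with a mean of at least 10 (15579 with a symbol, 937 unnamed and overlapping one, 4494 intergenic), with Benjamini-Hochberg adjustment over all of them at 0.05. Values ± SE are log2 fold changes. Shares were compared with a two-sided exact permutation test over samples, and intervals are 95% Wilson intervals. Alternatives were other pseudocounts and filters, median rescaling, FPKM with a pseudocount of 0.1, a replicate block, edgeR 4.0.16 and DESeq2 1.42.0 on recovered reads, the compared groups alone and leaving out libraries. The fits were tested on simulated data. Replicate numbers did not pair samples (correlations of deviations from -0.047 to 0.0396). Named were the 8 loci with the highest mean, the 8 with the largest fold change in each direction among called loci whose compartments did not overlap, and up to 4 called loci in each *miR-92b* comparison, of which there were none. Other names were chosen after values were seen. Coordinates are 1-based on GRCm38, and annotation is from RefSeq (GRCm38.p6) and GENCODE M21. Sequence of the intervals themselves was not analysed here. Values of some single marker genes are not reported here.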

Additional observations from a re-analysis of the deposited data

Results flagged for a closer look

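The share of reads on the 4494 unnamed intergenic loci was 2.28% in whole cell *miR-92b* 3, against 4.5% to 5.68% in the other 8 whole cell samples. Its gap to the nearest sample was 0.653 of the range of the 9 samples, above the 95% critical value of Dixon's test. For the loci at least 5000 bases from a locus with a symbol the share in the same sample was 1.57%, with a gap of 0.676 of the range. This library also had reads on the fewest intergenic loci, 2006 of 4494, with 11061850 reads in all. Chance puts about 1 group in 20 past this limit, and the cause was not tested.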

How the results depend on the processing

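Of 237 alternative values for 8 results, 175 stayed within 1.5 times the main count or kept their direction and side of the threshold. Another 62 counts moved further, and 0 values reversed. A count of calls has no direction, so the 0 carries information for the share difference only. In Scr cells the calls went from 43 higher and 6 lower to 0 higher and 1 lower without the 3 nuclear libraries with few detected loci. The cause was not tested unless named. The 790 calls over the 3 treatments became 506 with no filter and 494 with a mean of at least 50 (more and fewer loci tested), 507 by edgeR, 430 without the 3 nuclear libraries with few detected loci, 505 without these and whole cell *miR-92b* 3, and 492 when counted over loci at least 5000 bases from a symbol. The 127 calls in control cells became 41 on FPKM, 370 with the compared groups only, 36 without the 3 libraries and 212 without the 4. The 49 in Scr cells became 81 with a mean of at least 1, 76 with no filter, 22 by edgeR, 269 by DESeq2, 1 without the 3 libraries and 12 without the 4. The 326 in *miR-92b* cells became 172 on FPKM, 197 with the compared groups only, 187 by edgeR and 195 without the 4 libraries. For *miR-92b* against Scr, the 0 nuclear calls became 3 with no filter, 1 on FPKM and 8 by DESeq2, and the 0 whole cell calls 22 with a mean of at least 1, 43 with no filter, 2 on FPKM, 134 by DESeq2 and 1 without the 4 libraries. The 0 interaction calls (0) became 1 with a mean of at least 1 (32), 18 with no filter (147), 2 on FPKM (3) and 3 by DESeq2 (8). Leaving out each library in turn gave 577 to 1028 calls over the 3 treatments, 35 to 274 in control, 7 to 210 in Scr and 97 to 573 in *miR-92b* cells, 0 to 6 and 0 to 39 for *miR-92b* against Scr in nuclear and whole cell samples, 0 to 1 for the interaction and a share difference of 2.86 to 3.29 points. The libraries left out for few detected loci were chosen after seeing the data.

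With the replicate block, counts were 781, 129, 46 and 311 for the compartment comparisons and 0 for the others. The numbers share no more than a number, since correlations of deviations were at most 0.0396. Median rescaling moved the median log2 fold change of all loci in control cells from 0.24 to 0.36. For single loci, 860 of 948 alternative values kept their call, 83 lost it, 5 gained it and 0 reversed. DESeq2 gave no adjusted p for 3539 of the loci in control cells, 1077 for nuclear *miR-92b* against Scr, 254 for the interaction and 20 in each other comparison.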
